A study of Mus musculus with 10 samples.

Results

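The simple epithelial keratins followed here are 7 genes, Krt7, Krt8, Krt18, Krt19, Krt20, Krt23 and Krt80, taken by symbol from a table of 19456 genes measured in mouse intestinal tissue. All 7 were listed in each of the 10 libraries, and 6 passed the filter on low counts, the exception being Krt80. Keratins are the intermediate filament proteins of epithelial cells, and a filament needs a type I chain and a type II chain in pairs. In single-layered epithelia such as that of the intestine, Krt8 (type II) and Krt18 (type I) form the pair present in nearly every epithelial cell. Krt19 and Krt20 add type I chains in intestinal cells, Krt20 mainly in differentiated ones, and the filaments give the cell layer mechanical strength and are anchored at desmosomes.

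The libraries came from C57BL/6 mice, transgenic for ITGB6 (TG) or wild type (WT), either given 2.5% oral dextran sulfate sodium (DSS) or untreated. DSS injures the colonic epithelium, and the submitters used it to set up a model of intestinal fibrosis. There were 2 TG DSS libraries, 2 WT DSS libraries, 3 TG untreated libraries and 3 WT untreated libraries. ITGB6 encodes the beta chain of the epithelial integrin that activates latent TGF-beta. The promoter that drives the transgene, the age of the mice, the length of DSS treatment and the segment of intestine are not given in the sources used here.

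Libraries held 15393859 to 18284704 expected counts. Human ITGB6 measured 2201 to 2453 CPM (counts on a scale common to all libraries) in TG DSS libraries, 0.71 to 1.13 CPM in WT DSS libraries, 3632 to 3913 CPM in TG untreated libraries and 0.12 CPM in WT untreated libraries. Epcam, an epithelial adhesion molecule, was at 1566 to 1985 CPM in all 10 libraries. The leukocyte gene Ptprc was at 8.94 CPM in TG untreated replicate 1, against 56.9 and 79.5 CPM in the other TG untreated libraries. The 6 smooth muscle markers together reached at most 9.78 CPM, the 5 mesothelial markers 12 CPM and the 7 markers of stratified squamous epithelium 3.40 CPM. Xist, transcribed from the inactive X chromosome, was at 307 to 739 CPM in DSS libraries and 0 to 0.42 CPM in untreated ones, and the Y-linked Kdm5d was at 0 in DSS libraries and 26.6 to 44.2 CPM in untreated ones. Sex and DSS therefore cannot be told apart in any comparison of DSS with untreated libraries. The same holds for any difference of the DSS effect between genotypes, or of the genotype effect between untreated and DSS libraries. The labels do not say that libraries of a group come from separate animals, so each p-value is set against the spread among the libraries of a group, which may be technical. In tissue, fewer cells of a type and less RNA per cell cannot be told apart.

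The keratin genes lie in 2 clusters, on GRCm38 chromosomes 15 and 11. Krt80 (chr15:101348315-101370162), Krt7 (chr15:101412403-101427806) and Krt8 (chr15:101996711-102004342) are type II genes. Krt18 (chr15:102028216-102032026) is the type I gene that lies in the type II cluster, 23.9 kb from Krt8 with 0 protein-coding genes between them, and the pair points away from each other. Krt7 and Krt8 are 568.9 kb apart, and 22 of the 23 protein-coding genes between them are keratins. Krt20 (chr11:99428385-99438153) and Krt23 (chr11:99477973-99493120) are neighbours 39.8 kb apart, and Krt19 (chr11:100140810-100145926) lies 647.7 kb from Krt23. The results below turn on Krt18, Krt7 and Krt23, so the 250 bases before their RefSeq starts on GRCm38.p6 are shown 5′ to 3′ with that of Krt8, the partner and neighbour of Krt18. Of the 7 members, 5 had a promoter in the RefSeq table used. Windows are chr15:102027966-102028215 (plus strand) for Krt18, chr15:102004343-102004592 (minus strand) for Krt8, chr15:101412153-101412402 (plus strand) for Krt7 and chr11:99493121-99493370 (minus strand) for Krt23.
Krt18: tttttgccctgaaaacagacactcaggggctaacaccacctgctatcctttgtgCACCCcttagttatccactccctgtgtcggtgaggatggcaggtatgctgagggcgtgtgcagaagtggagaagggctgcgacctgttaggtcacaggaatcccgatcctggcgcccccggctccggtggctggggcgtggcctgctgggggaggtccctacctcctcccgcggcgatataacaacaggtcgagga
Krt8: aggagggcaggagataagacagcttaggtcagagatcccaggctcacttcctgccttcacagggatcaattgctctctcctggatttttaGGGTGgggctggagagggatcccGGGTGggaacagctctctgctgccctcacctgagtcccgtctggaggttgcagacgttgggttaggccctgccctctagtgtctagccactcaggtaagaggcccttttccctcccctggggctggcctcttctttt
Krt7: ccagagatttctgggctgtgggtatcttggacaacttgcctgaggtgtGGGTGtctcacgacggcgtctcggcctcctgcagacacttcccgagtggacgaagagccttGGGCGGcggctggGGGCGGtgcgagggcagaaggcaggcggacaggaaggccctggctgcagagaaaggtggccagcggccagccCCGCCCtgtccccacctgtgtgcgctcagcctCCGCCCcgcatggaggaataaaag
Krt23: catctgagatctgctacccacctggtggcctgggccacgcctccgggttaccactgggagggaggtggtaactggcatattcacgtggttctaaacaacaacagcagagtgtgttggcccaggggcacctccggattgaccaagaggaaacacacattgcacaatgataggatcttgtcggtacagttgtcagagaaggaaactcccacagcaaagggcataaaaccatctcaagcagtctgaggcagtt
Capitals mark matches, on either strand, to the 5 motifs searched: the TATA box TATAAA, the GC box GGGCGG, the CCAAT box CCAAT, the AP-1 motif TGANTCA and the CACCC box CACCC.

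These windows differ in composition and in motif matches. Krt7 had 66.0% G and C with 16 CpG pairs and 4 GC boxes, a motif held by 32.7% of the 32851 promoters in the table, plus 1 CACCC box. Krt18 had 60.4% G and C with 12 CpG pairs and 1 CACCC box, a motif held by 52.0% of promoters. Krt8 had 58.0% G and C, 3 CpG pairs and 2 CACCC boxes. Krt23 had 52.8% G and C, 5 CpG pairs and no match to any of the 5 motifs. The median promoter had 52.4% G and C and 6 CpG pairs. TATAAA was held by 12.4% of promoters, CCAAT by 33.8% and TGANTCA by 6.75%, and none of the 4 windows shown matched any of these. A match describes the letters and is not evidence of binding.

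Per unit of transcript length (FPKM, fragments per kilobase scaled to depth, as deposited), the members covered a wide range in a steady order. Krt8 was highest at 3104 to 4732 FPKM, followed by Krt19 at 2800 to 3833 FPKM. Krt20 stood at 379 to 608 FPKM, Krt18 at 320 to 483 FPKM and Krt7 at 94.9 to 166 FPKM. Krt23 was at 2.29 to 6.62 FPKM and Krt80, a type II keratin of epithelial differentiation, at 0.06 to 0.35 FPKM. Every neighbour in this order was the higher in 10 of 10 libraries, except that Krt20 exceeded Krt18 in 9 of 10. The exception was TG untreated replicate 1, with 379 FPKM of Krt20 and 483 FPKM of Krt18. Krt8 ranked between place 2 and place 5 of all genes by FPKM in a library, Krt19 between place 5 and place 8, and the 7 members together took 1.09 to 1.54% of all counts.

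**Figure D1:**
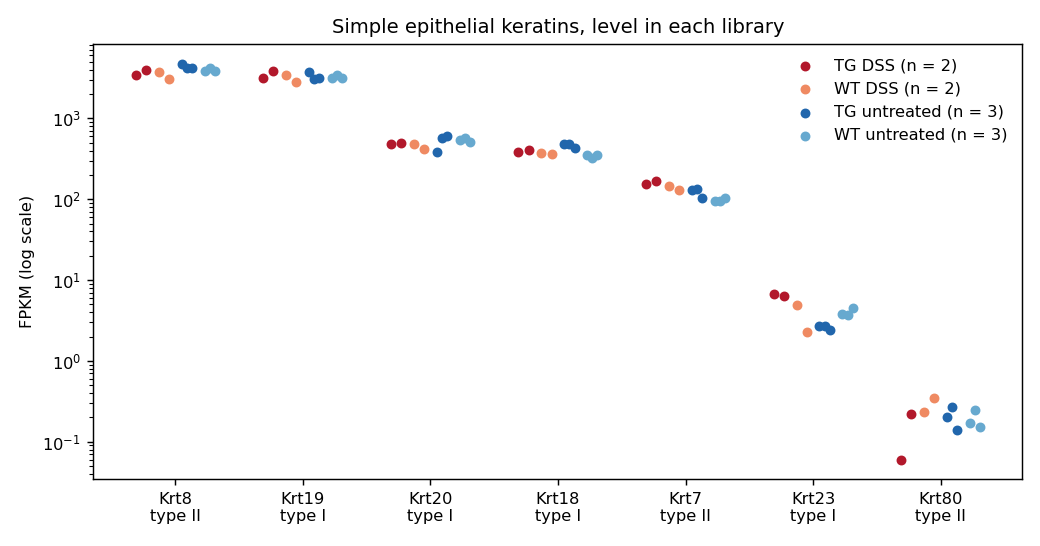
FPKM of each simple keratin on a log axis, 1 point per library, coloured by group. Krt8 and Krt19 lie highest in all 10 libraries and Krt80 lowest, at 0.06 to 0.35 FPKM.

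RNA of the type I and type II members was close in total, and protein was not measured. Krt8 made up 95.6 to 97.8% of type II FPKM over the 3 type II members, and Krt19 made up 74.2 to 81.3% of type I FPKM over the 4 type I members, against 7.42 to 11.7% for Krt18 and 8.18 to 14.4% for Krt20. Summed type I FPKM divided by summed type II FPKM was 1.13 and 1.16 in the TG DSS libraries, 1.10 and 1.11 in the WT DSS libraries, 0.952, 0.938 and 0.991 in the TG untreated libraries and 1.0, 1.0 and 1.01 in the WT untreated libraries. All 4 DSS libraries were above all 6 untreated libraries, and within the untreated libraries the TG values lay below the WT values. No test is given for a sum over members. Krt19 is the one member whose deposited length differed between libraries, at 1352 to 1366 bases in DSS libraries and 1392 to 1395 bases in untreated ones. With its length held fixed, a setting added after seeing the data, the ratio was 1.09 to 1.14 in DSS libraries and 0.941 to 1.01 in untreated libraries, again without overlap. Krt19 counts per Krt8 count, which need no length, were 0.672 to 0.728 in DSS libraries and 0.551 to 0.623 in untreated libraries.

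**Figure D2:**
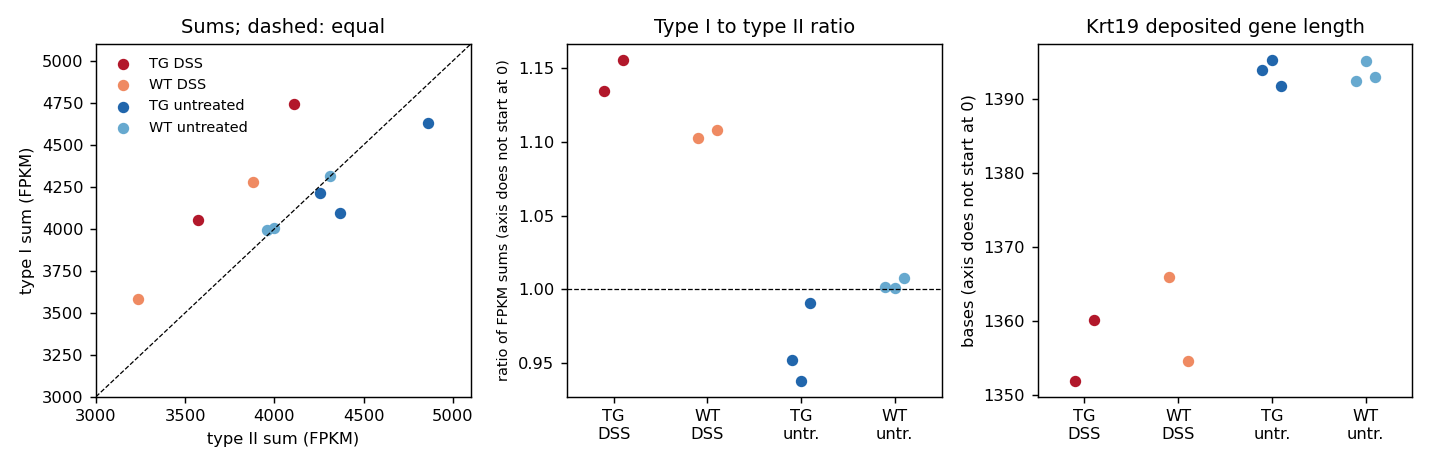
Type I to type II keratin ratio from summed FPKM in each library, by group, with 1 point per library. The 4 DSS libraries sit at 1.10 to 1.16 and the 6 untreated libraries at 0.938 to 1.01.

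Against this background, the ITGB6 transgene in untreated tissue was accompanied by more Krt18. Krt18 stood at 693, 653 and 614 CPM in TG untreated libraries, against 467, 426 and 459 CPM in WT untreated libraries. The groups did not overlap, and every TG library exceeded every WT library. Krt18 rose 1.45-fold, a log2 fold change of 0.54 ± 0.10 (SE) with a 95% interval of 0.32 to 0.75 and an adjusted p of 0.0205 (edgeR quasi-likelihood test, Benjamini-Hochberg). It was the one member of 6 tested that passed, where 3.7% of all genes passed, 2.26% as higher and 1.44% as lower. Without TG untreated replicate 2 the adjusted p was 0.0598, and without WT untreated replicates 1, 2 and 3 it was 0.0739, 0.109 and 0.0939 in turn, at log2 fold changes of 0.51, 0.54, 0.48 and 0.53. The call held without TG untreated replicate 1 and without replicate 3.

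Other members did not pass in untreated tissue. Krt7, a type II keratin of ducts and some intestinal cells, stood at 213, 207 and 167 CPM in TG untreated libraries, against 146, 146 and 157 CPM in WT untreated libraries. Every TG library was above every WT library, with a log2 fold change of 0.39 ± 0.12 (SE) and an adjusted p of 0.108, and by DESeq2 the adjusted p was 0.0490. Krt8, the partner of Krt18, stood at 8801, 7495 and 7648 CPM in TG untreated libraries, against 6789, 7272 and 6576 CPM in WT untreated libraries. Krt8 also did not overlap between groups, but its log2 difference of 0.21 had a 95% interval of -0.09 to 0.52. Krt19 had a log2 difference of 0.13 (95% interval -0.21 to 0.47) and Krt20 of 0.03 (95% interval -0.33 to 0.39). Krt23 was at 4.35, 4.13 and 3.85 CPM in TG untreated libraries, against 5.75, 5.42 and 6.71 CPM in WT untreated libraries, lower in all 3 TG libraries with an adjusted p of 0.283. In all, 3 of the 6 tested members were higher and 1 lower without overlap, where 32% of all genes tested had no overlap, 16.7% as higher and 15.4% as lower. The 6 tested members had a median log2 fold change of 0.17, against -0.02 over all 14072 genes tested.

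Krt18 per Krt8, the ratio within the classic pair, was 0.102, 0.113 and 0.104 by FPKM in TG untreated libraries and 0.0893, 0.0760 and 0.0906 in WT untreated libraries, without overlap. After DSS the ratio was 0.112 and 0.103 in TG libraries and 0.101 and 0.116 in WT libraries, so the genotypes overlapped. The WT DSS libraries thus lay near the TG untreated level. Markers of other cells also differed between the TG and WT untreated libraries, where 3.7% of all genes passed. The 8 fibroblast markers summed to 50.9 to 130 CPM in TG untreated libraries and 33.0 to 46.4 CPM in WT untreated libraries, with 4 of 8 higher in TG, 0 lower, and 0 of the markers at 0 throughout a group. The 4 became 0 without TG untreated replicate 2 or 3 or WT untreated replicate 1 or 2, and 1 without WT untreated replicate 3. The 8 goblet cell markers summed to 28384 to 39345 CPM in TG untreated libraries and 9406 to 24157 CPM in WT untreated libraries, with 3 of 8 higher and 0 lower, and the 3 became 1 without WT untreated replicate 2 or 3. The 9 leukocyte markers summed to 23.6 to 131 CPM in TG untreated libraries and 84.0 to 148 CPM in WT untreated libraries, with 0 of 9 passing in edgeR, 2 at an unadjusted p under 0.05, and 0 each by DESeq2 and limma. Their part in the Krt18 difference was not tested.

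After DSS, no member passed between genotypes. By edgeR 0 of 6 passed, 1 (Krt23) had an unadjusted p under 0.05, and DESeq2 and limma each called 0, where 0.185% of all genes passed, 0.178% as higher and 0.00711% as lower. Krt23, a type I keratin known to rise in injured mouse liver, stood at 10.7 and 10.4 CPM in TG DSS libraries, against 7.80 and 3.46 CPM in WT DSS libraries. Both TG libraries were above both WT libraries, and the WT libraries differed widely from each other. Its log2 fold change was 0.91 ± 0.31 (SE) with an adjusted p of 0.308, and without WT DSS replicate 1 it was 1.61 with an adjusted p of 0.0401.

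After DSS, 4 of the 6 tested members (Krt7, Krt18, Krt20 and Krt23) were higher in TG without overlap and 0 lower, where 43.2% of all genes tested had no overlap, 22% as higher and 21.2% as lower. Krt7 stood at 258 and 285 CPM in TG DSS libraries, against 240 and 200 CPM in WT DSS libraries, a log2 difference of 0.30 (95% interval -0.03 to 0.62). Krt18 stood at 551 and 606 CPM in TG DSS libraries, against 535 and 484 CPM in WT DSS libraries, a log2 difference of 0.18 (95% interval -0.08 to 0.45). Krt20, at 962 and 1042 CPM in TG DSS libraries and 950 and 800 CPM in WT DSS libraries, differed by 0.20 (95% interval -0.25 to 0.64) on the log2 scale. The libraries of the other members overlapped between genotypes or had few counts. The log2 differences were 0.18 for Krt8 and 0.25 for Krt19, and Krt80 had 2 and 7 counts in TG DSS libraries, against 7 and 11 in WT DSS libraries, without an overlap in CPM. All 6 tested members had log2 differences above 0, with a median of 0.22 against -0.01 over all genes tested.

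**Figure D3:**
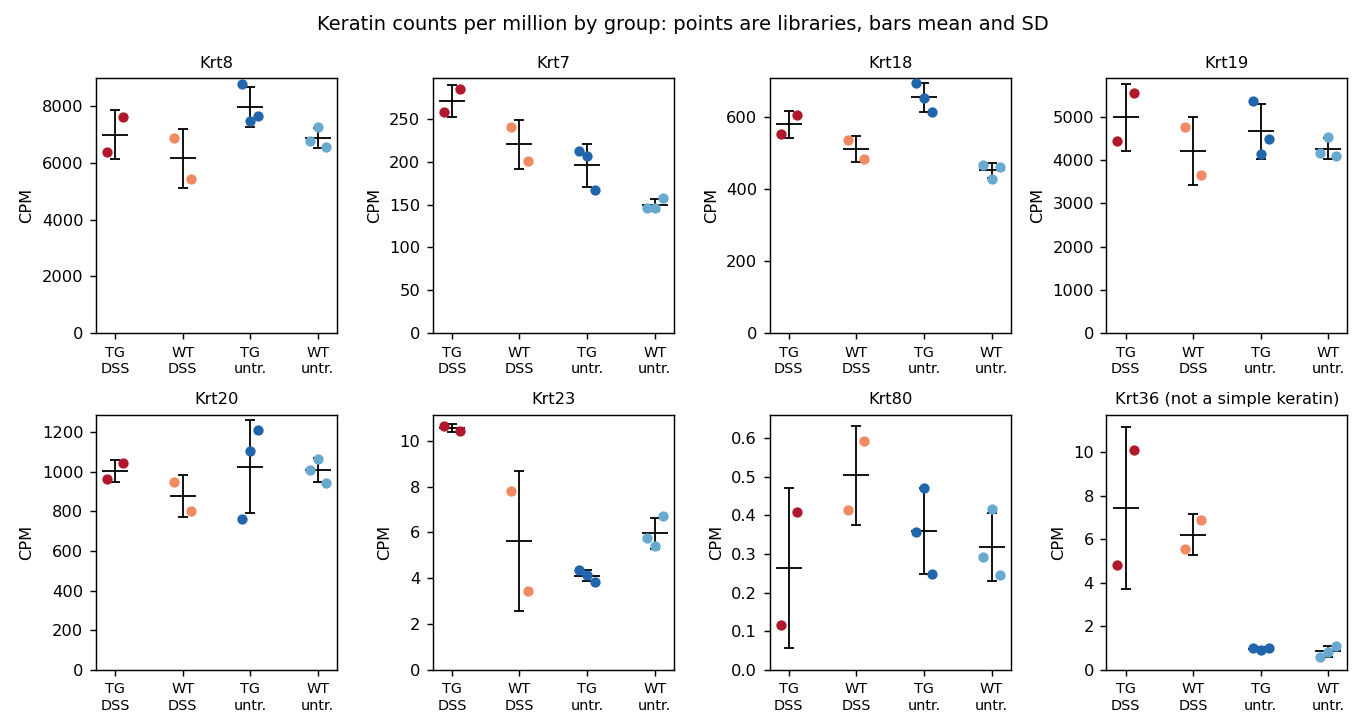
CPM of each simple keratin, and of Krt36 from the other keratins, by group, 1 panel per gene, with points for libraries and the mean ± SD. Krt18 is highest in TG untreated libraries (614 to 693 CPM), Krt7 in TG DSS libraries (258 and 285 CPM) and Krt23 in TG DSS libraries (10.4 and 10.7 CPM).

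DSS in WT mice was accompanied by more Krt7. Krt7 stood at 240 and 200 CPM in WT DSS libraries, against 146, 146 and 157 CPM in WT untreated libraries. Both DSS libraries were above all 3 untreated libraries. Krt7 rose 1.47-fold, a log2 fold change of 0.56 ± 0.13 (SE) with an adjusted p of 0.0173, and it was the one member of 6 that passed, where 19.8% of all genes passed, 10.2% as higher and 9.62% as lower. Without WT DSS replicate 1 the log2 fold change was 0.42 with an adjusted p of 0.0904, and without WT untreated replicates 1 and 2 the adjusted p was 0.0626 and 0.0620 in turn.

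The other members did not pass in WT mice. Krt8 stood at 6899 and 5432 CPM in WT DSS libraries, against 6789, 7272 and 6576 CPM in WT untreated libraries, and Krt8 differed by -0.16 (95% interval -0.50 to 0.19) on the log2 scale. Krt19 differed by -0.02 (95% interval -0.40 to 0.36) and Krt20 by -0.20 (95% interval -0.61 to 0.20). Krt18, at 535 and 484 CPM in WT DSS libraries and 467, 426 and 459 CPM in WT untreated libraries, had no overlap and a log2 difference of 0.18 (95% interval -0.07 to 0.42). Krt23 differed by -0.09 ± 0.29 (SE), and its 2 WT DSS libraries, at 7.80 and 3.46 CPM, lay above and below all 3 untreated ones. Krt7 and Krt18 were thus the 2 of 6 tested members without overlap, both higher, where 57.4% of all genes tested had no overlap, 28.4% as higher and 29.1% as lower. Without WT DSS replicate 1 the Krt23 log2 fold change was -0.78 with an adjusted p of 0.0438.

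DSS in TG mice was accompanied by more Krt23. Krt23 stood at 10.7 and 10.4 CPM, from 182 and 178 counts, in TG DSS libraries, against 4.35, 4.13 and 3.85 CPM, from 73, 70 and 62 counts, in TG untreated libraries. The groups were far apart and the values within each were close. Krt23 rose 2.56-fold, a log2 fold change of 1.36 ± 0.28 (SE) with a 95% interval of 0.73 to 1.99 and an adjusted p of 0.0216. It was the one member of 6 that passed, where 5.48% of all genes passed, 3.33% as higher and 2.15% as lower. Without TG DSS replicates 1 and 2 the adjusted p was 0.123 and 0.141, and without TG untreated replicates 2 and 3 it was 0.0631 and 0.0795, at log2 fold changes of 1.31 to 1.37.

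Krt7 was next in TG mice. It stood at 258 and 285 CPM in TG DSS libraries, against 213, 207 and 167 CPM in TG untreated libraries, with both DSS libraries above all untreated ones. Its log2 fold change of 0.47 ± 0.13 (SE) had an adjusted p of 0.0699 in edgeR, 0.0236 in DESeq2, and 0.0285 in edgeR without TG untreated replicate 1. Krt18 stood at 551 and 606 CPM in TG DSS libraries, against 693, 653 and 614 CPM in TG untreated libraries, below all 3, with a log2 difference of -0.18 (95% interval -0.42 to 0.07). Krt8 differed by -0.19 (95% interval -0.53 to 0.15), Krt19 by 0.10 (95% interval -0.28 to 0.48) and Krt20 by -0.03 (95% interval -0.44 to 0.37). Of the 6 tested members, 2 were higher and 1 lower without overlap, where 35.1% of all genes tested had no overlap, 19.1% as higher and 16% as lower.

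**Figure D4:**
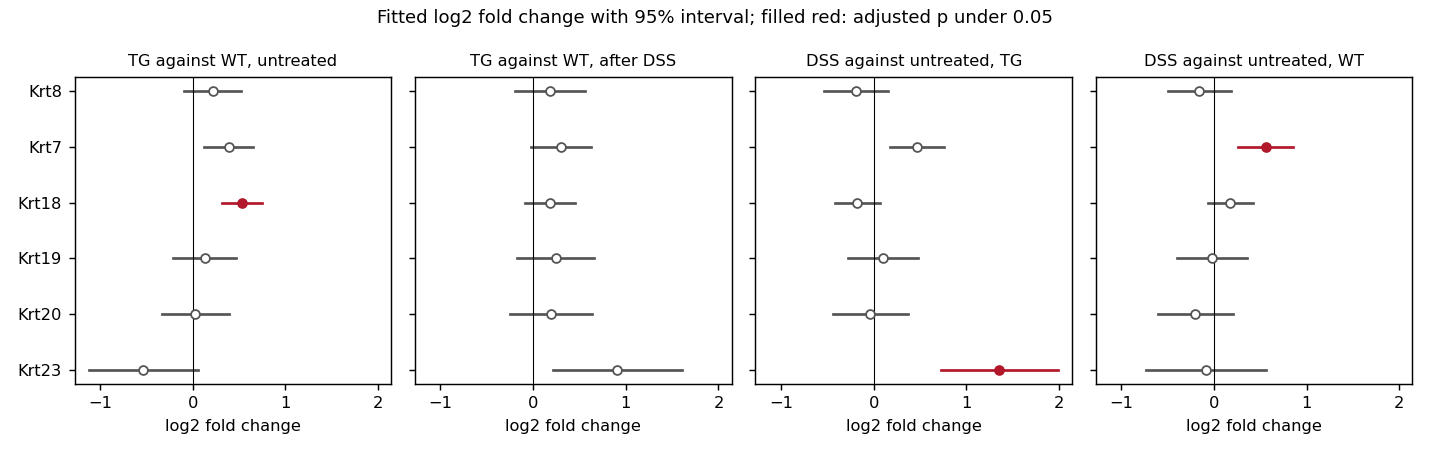
Log2 fold change of the 6 tested members in each comparison, with 95% intervals; filled points passed at adjusted p under 0.05. Passing points are Krt18 for TG against WT untreated (0.54), Krt7 for DSS in WT (0.56) and Krt23 for DSS in TG (1.36).

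No member passed the test of whether the DSS effect differed between genotypes. By edgeR 0 of 6 passed, 2 had an unadjusted p under 0.05, limma called 0 and DESeq2 called 1, where 0.846% of all genes passed, 0.526% as higher and 0.32% as lower. For Krt23 the difference of log2 effects, TG minus WT, was 1.44 ± 0.41 (SE) with an adjusted p of 0.162. DESeq2 gave Krt23 an adjusted p of 0.0489, and edgeR without WT DSS replicate 1 gave 2.14 with an adjusted p of 0.0123. For Krt18 the difference was -0.35 ± 0.15 (SE) with an adjusted p of 0.407. The Krt7 effects, passing in WT and not in TG by edgeR, differed by -0.09 (95% interval -0.51 to 0.33).

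Some other keratins passed with DSS and none between genotypes, where few genes of any kind passed. Of 11 tested members of a list of 28 other keratins, 0 passed between genotypes in either condition. Over all genes 3.7% passed between genotypes in untreated tissue and 0.185% after DSS. In untreated tissue 3 of the 11 had an unadjusted p under 0.05 and DESeq2 and limma called 0, and after DSS all these counts were 0. With DSS in WT mice 3 were higher and 1 lower, where 10.2% of all genes passed as higher and 9.62% as lower. With DSS in TG mice 1 was higher and 0 lower, where 3.33% of all genes passed as higher and 2.15% as lower. Krt36, a hair-type type I keratin, was the one that passed in both. It stood at 4.80 and 10.1 CPM in TG DSS libraries, 5.55 and 6.86 CPM in WT DSS libraries, 1.01, 0.89 and 0.99 CPM in TG untreated libraries and 0.59, 0.83 and 1.11 CPM in WT untreated libraries. Every DSS library exceeded every untreated one, with log2 fold changes of 2.94 ± 0.35 (SE, adjusted p 0.00127) in TG and 2.88 ± 0.36 (SE, adjusted p 0.000774) in WT, passing in 21 of 21 alternatives in each. The other 3 passing in WT, Krt6b, Krt13 and Krt4, were near or below 1 CPM and are named after their values were seen. In WT DSS libraries Krt6b was at 1.24 and 2.48 CPM, Krt13 at 0.41 and 0.65 CPM and Krt4 at 0 and 0.05 CPM, against at most 0.41, 0.06 and 1.17 CPM in WT untreated libraries. The 3 higher became 1 without WT DSS replicate 2, where Krt6b and Krt13 were lost, and also under the 1 CPM filter and limma on filtered FPKM, neither of which tested those 2 genes. Krt13 was also lost without any 1 WT untreated library, and Krt4 without either WT DSS library.

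Desmosomal and plakin genes, which anchor keratin filaments, passed with DSS in WT mice at a share near that of all genes. Of 16 tested, 2 rose and 1 fell, where 19.8% of all genes passed, 10.2% as higher and 9.62% as lower. With DSS in TG mice 0 passed, where 5.48% of all genes passed. There 5 of the 16 had an unadjusted p under 0.05, and DESeq2 and limma called 0. Between genotypes 0 passed in either condition, where 3.7% of all genes passed in untreated tissue and 0.185% after DSS. In untreated tissue 3 had an unadjusted p under 0.05, DESeq2 called 1 and limma 0, and after DSS all these counts were 0. Pkp4, an armadillo protein of cell junctions, stood at 126 and 129 CPM in WT DSS libraries, against 78.1, 80.5 and 75.2 CPM in WT untreated libraries, a log2 fold change of 0.71 with an adjusted p of 0.00214. Pkp2, a desmosomal plaque protein, rose by 0.46 on the log2 scale with an adjusted p of 0.0121, and Evpl, a plakin, had a log2 fold change of -0.72 with an adjusted p of 0.0264. Pkp2 did not pass without WT DSS replicate 2, nor Evpl without either WT DSS replicate or WT untreated replicates 1 and 2.

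Genes of the apical brush border, whose rootlets meet the keratin network at the terminal web, fell with DSS in WT mice in 6 of 16 cases, with 0 higher. Over all genes tested, 9.62% passed as lower and 10.2% as higher. Cobl, an actin nucleator, was at 49.2 and 43.9 CPM in WT DSS libraries, against 130, 131 and 117 CPM in WT untreated libraries, a log2 fold change of -1.44 with an adjusted p of 0.000266. Espn, an actin bundler, had a log2 fold change of -1.30 with an adjusted p of 0.000925. In TG mice 0 of 16 passed with DSS, where only 5.48% of all genes passed, against 19.8% in WT mice. Of the 16 in TG mice, 2 had an unadjusted p under 0.05 and DESeq2 and limma each called 1. The DSS effect differed between genotypes for 1 of the 16, Espn, where 0.846% of all genes passed. For Espn the difference was 1.28 on the log2 scale, TG minus WT (adjusted p 0.0354). Of the 16, 7 had an unadjusted p under 0.05, all with the higher effect in TG. DESeq2 and limma each called 4, and edgeR called 4 without WT DSS replicate 1 and 3 without TG untreated replicate 1. The Espn call was lost without either TG DSS library, WT DSS replicate 2, TG untreated replicate 2 or any 1 WT untreated library. Cobl was the one that passed between genotypes in untreated tissue, at 80.8, 63.7 and 83.9 CPM in TG libraries, against 130, 131 and 117 CPM in WT libraries (log2 fold change -0.73, adjusted p 0.0170, not passing without any 1 of the 3 WT libraries).

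Genes of surface colonocytes, where Krt20 is typically high, and of repairing epithelium changed with DSS in both genotypes. Over all genes tested, 10.2% passed as higher and 9.62% as lower with DSS in WT mice, and 3.33% and 2.15% in TG mice. Of 18 tested surface genes, 8 fell and 2 rose with DSS in WT mice, and 4 rose and 0 fell in TG mice. The 8 became 3 without WT DSS replicate 2 and 5 without any 1 WT untreated library, and the 4 became 1 without TG DSS replicate 2. The 2 became 0 without WT untreated replicate 3, 1 without WT untreated replicate 1 or 2, and 5 without TG untreated replicate 1 or with DESeq2. In untreated tissue 2 of the 18 passed between genotypes, Car4 and Slc37a2, both lower in TG, where 3.7% of all genes passed. Car4 had a log2 fold change of -0.78 there with an adjusted p of 0.0175. It did not pass without TG untreated replicate 2 or any 1 WT untreated library. Of the 18, 2 differed in DSS effect between genotypes, Car4 and Saa1, both with the higher effect in TG, where 0.846% of all genes passed. That count was 6 with DESeq2 and 0 to 4 when 1 library was left out, lowest without TG DSS replicate 1 and highest without TG untreated replicate 1 or WT DSS replicate 1. Of 19 tested repair genes, 12 rose and 2 fell in WT mice, and 5 rose and 0 fell in TG mice. The 2 that fell became 0 without WT DSS replicate 2 or WT untreated replicate 1 or 2, and 1 without WT untreated replicate 3 or TG DSS replicate 2. In untreated tissue 2 of the 19, Ly6e and Areg, passed between genotypes, both higher in TG, where 3.7% of all genes passed. These 2 became 0 without WT untreated replicate 3, 1 without WT untreated replicate 1, and 5 with DESeq2. The DSS effect on repair genes differed between genotypes for 0 of 19 by edgeR, where 0.846% of all genes passed. Of the 19, 10 had an unadjusted p under 0.05, 2 with the higher and 8 with the lower effect in TG. DESeq2 called 5 and limma 1. Ly6a, a surface protein of regenerating colonic epithelium, stood at 827 and 1012 CPM in TG DSS libraries, 1213 and 1111 CPM in WT DSS libraries, 213, 203 and 201 CPM in TG untreated libraries and 116, 170 and 109 CPM in WT untreated libraries. Its log2 fold change with DSS was 2.16 in TG and 3.14 in WT, with adjusted p of 0.000152 and 1.57e-05. The 22 epithelial identity genes had a median log2 fold change of 0.19 with DSS in TG mice and 0.04 in WT mice, against 0.01 and 0.00 over all genes. Of these 22, 0 passed as higher and 2 as lower in TG mice, and 2 as higher and 3 as lower in WT mice. The 2 lower in TG mice became 1 without TG untreated replicate 2 or 3 or any 1 WT untreated library. That count also fell without either TG DSS library, which leaves 1 library in the group. The 2 higher in WT mice became 0 without WT untreated replicate 3, 1 without WT untreated replicate 1 or 2, and 4 without TG untreated replicate 1 or 2. That count also fell without either WT DSS library, which leaves 1 library in the group. The 3 lower in WT mice fell in number without WT DSS replicate 2.

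Markers of other cells also differed with DSS, where 19.8% of all genes passed in WT mice and 5.48% in TG mice. The 9 leukocyte markers summed to 43.7 to 52.0 CPM in TG DSS libraries and 23.6 to 131 CPM in TG untreated libraries, with 3 higher and 0 lower. They summed to 50.9 to 75.4 CPM in WT DSS libraries and 84.0 to 148 CPM in WT untreated libraries, with 5 higher and 1 lower (Cd3e). The 5 higher in WT, Cd68, Lyz2, Itgam, S100a8 and S100a9, reached at most 13.4 CPM in any library. Ptprc, which did not pass, was at 22.4 and 16.1 CPM in WT DSS libraries, against 66.2, 114 and 62.7 CPM in WT untreated libraries. In WT the 5 became 3 without WT DSS replicate 1 or WT untreated replicate 1 or 3, and the 1 became 0 without WT DSS replicate 2 or WT untreated replicate 2 and 2 without TG untreated replicate 1 or 3. The 8 fibroblast markers summed to 32.7 to 33.3 CPM in TG DSS libraries and 50.9 to 130 CPM in TG untreated libraries, with 0 higher and 3 lower, the 3 becoming 0 without either TG DSS library and 5 without TG untreated replicate 1. The 6 enteroendocrine markers, hormone and granule genes such as Gcg, Pyy and Cck, summed to 490 to 558 CPM in TG DSS libraries and 221 to 292 CPM in TG untreated libraries, with 4 higher, and to 292 to 404 CPM in WT DSS libraries and 216 to 301 CPM in WT untreated libraries, with 3 higher. The 4 became 1 without TG DSS replicate 1 and 2 without replicate 2, and the 3 became 1 without WT DSS replicate 1. The 6 tuft cell markers summed to 13.6 to 14.4 CPM in TG DSS libraries and 27.7 to 30.3 CPM in TG untreated libraries, with 2 of 4 tested lower, and to 9.56 to 13.4 CPM in WT DSS libraries and 21.3 to 28.3 CPM in WT untreated libraries, with 4 of 4 lower. The tuft counts ranged from 0 to 4 in TG, at 0 without either TG DSS library, and from 1 to 4 in WT, at 1 without WT DSS replicate 2, when 1 library was left out.

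The remaining lists were also set beside these changes. The 8 goblet cell markers summed to 26717 to 33526 CPM in TG DSS libraries and 28384 to 39345 CPM in TG untreated libraries, with 2 higher, and to 13646 to 21918 CPM in WT DSS libraries and 9406 to 24157 CPM in WT untreated libraries, with 1 higher. When 1 library was left out these goblet counts ranged from 0 to 2 in each genotype, at 0 without TG DSS replicate 1 in TG and without WT DSS replicate 1 or WT untreated replicate 2 or 3 in WT. Of 4 measured endothelial markers, which summed to at most 9.49 CPM in any library, 1 of 2 tested was lower in TG and 2 of 2 in WT, and both counts became 0 when a DSS library was left out, either one in TG and replicate 2 in WT, and the TG count also without TG untreated replicate 3. The 20 crypt and proliferation genes summed to 1526 to 1532 CPM in TG DSS libraries and 1154 to 1392 CPM in TG untreated libraries, with 0 higher and 3 lower of 19 tested. They summed to 1451 to 2246 CPM in WT DSS libraries and 989 to 1139 CPM in WT untreated libraries, with 8 higher and 5 lower. In WT the 8 became 0 without WT DSS replicate 2 and 3 without any 1 WT untreated library, and in TG the 3 became 1 without either TG DSS library, TG untreated replicate 2 or 3 or any 1 WT untreated library, and 5 without either WT DSS library. At 0 throughout a DSS group were 1 tuft marker (Il25) and 1 endothelial marker (Kdr) in TG, and no leukocyte, fibroblast, goblet or enteroendocrine marker in either genotype. Their part in the Krt7 and Krt23 changes was not tested.

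Among 17 tested transcription factors with roles in simple epithelia, 2 passed with DSS in WT mice, where 19.8% of all genes passed. In TG mice 1 passed with DSS, where 5.48% of all genes did. With DSS in WT mice Elf3 rose by 0.64 (adjusted p 0.0160) and Grhl2 had a log2 fold change of -0.52 (adjusted p 0.0107). The Elf3 call was lost without either WT DSS library or WT untreated replicate 3, and the Grhl2 call without WT DSS replicate 2. With DSS in TG mice Grhl2 had a log2 fold change of -0.47 (adjusted p 0.0352), a call lost without 7 of the 10 libraries. Fosl1, an AP-1 subunit, rose by 1.60 on the log2 scale in TG untreated libraries (adjusted p 0.0205), at 3.94, 5.02 and 4.53 CPM, against 1.76, 1.49 and 1.17 CPM in WT untreated libraries. That call was lost without any 1 WT untreated library or without TG untreated replicate 2 or 3. After DSS 0 of 17 passed between genotypes by edgeR, DESeq2 or limma, where 0.185% of all genes passed by edgeR. There 3 of the 17 had an unadjusted p under 0.05 in edgeR.

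The genes whose level followed each member most closely over the 10 libraries were found by the root mean square difference of mean-centred log2 CPM, among 12730 genes. For Krt18 these were Pqlc1 (0.0589) and Srpr (0.0630), and for Krt8 Tbc1d22b (0.0646) and Rnf114 (0.0740). For Krt19 they were Zfand3 (0.0574) and Tecr (0.0585), and for Krt20 Sri (0.0901) and Azin1 (0.0958). For Krt7 they were Myeov2 (0.0946) and Drap1 (0.0977). Krt23, the lowest of the 6, had the least close neighbours, Pcsk1n (0.217) and Fcgrt (0.226).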

How the data were processed

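Poly-A RNA of intestinal tissue was sequenced on a BGISEQ-500, per the labels' protocols. The tools in the submitters' processing notes are RSEM 1.2.12, HISAT2 2.0.4 and Bowtie2 2.2.5, and the build is mm10; which step each served is not given. Per the file headers, each library's deposited table gives, by gene, its length in bases, its FPKM and its expected count. Genes not listed in a library were set to 0. Libraries were grouped by the labels.

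Deposited expected counts were rounded to whole numbers. The filterByExpr rule (minimum count 10, minimum total 15) left 14072 genes, and TMM set the scaling. All 10 libraries entered 1 quasi-likelihood model in edgeR 4.0.16 (R 4.3.3) with a mean for each group, which leaves 6 residual degrees of freedom; the common coefficient of variation was 0.171. A gene passed at a Benjamini-Hochberg adjusted p under 0.05 over all genes tested; log2 fold changes and p-values come from this fit unless DESeq2 or limma is named. Each SE was obtained from the log2 fold change and its F statistic. A background share of passing genes stands beside the first count of members in a comparison and beside some list counts. The model was tested on simulated counts whose changes were larger than those of Krt18 and Krt7 here. That test therefore does not speak to changes of their size.

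Named genes were the 7 members, up to 4 passing genes of a list with the largest changes and a mean of at least 1 CPM, the 2 genes nearest in profile to each member, and Xist, Kdm5d, human ITGB6 and Ptprc; not all are printed. The members and the 18 gene lists were chosen with earlier results of these data known. Nearest-profile values describe only these libraries. Coordinates and promoters come from RefSeq GRCm38.p6. Of 8 same-group pairs of libraries, none was a duplicate (chi-square per gene 9.43 to 61.0). Alternatives were DESeq2 1.42.0, 3 scalings, 2 filters, limma 3.58.1 on log2 FPKM with pseudocounts of 1 and 0.1, the replicate number as a block, fits restricted to the groups of a comparison, counts per kilobase in place of FPKM, and each library left out. Tables and figures were made with pandas 2.3.3, numpy 2.4.6, scipy 1.17.1 and matplotlib 3.10.9.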

Additional observations from a re-analysis of the deposited data

Results flagged for a closer look

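The difference of the DSS effect on Krt18 between TG and WT mice had an unadjusted p of 0.0457 in the interaction test. TG DSS libraries lay below all TG untreated libraries and WT DSS libraries above all WT untreated libraries, and the difference of log2 effects, TG minus WT, was -0.35 with an adjusted p of 0.407, so it did not pass.

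The genotype effect on Krt23 had opposite signs in the 2 conditions, which also differ in sex by Xist and Kdm5d. TG libraries lay above WT libraries after DSS (log2 fold change 0.91) and below them when untreated (-0.53), without overlap in either condition. The difference of these log2 effects, after DSS minus untreated, was 1.44 with an unadjusted p of 0.00526 and an adjusted p of 0.162, so it did not pass in edgeR.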

How the results depend on the processing

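Across 11 other settings (10 for the interaction) and 10 fits that each left out 1 library, no member's log2 fold change that had passed changed sign. The number of members passing was 1 for TG against WT untreated, 2 with DESeq2 and 0 with the replicate block, and 0 to 1 without a library. It was 0 for TG against WT after DSS under every other setting, and 0 to 1 without a library. It was 1 for DSS in WT, 0 with the block, and 0 to 1 without a library. It was 1 for DSS in TG, 2 with DESeq2, 0 with the block, and 0 to 2 without a library. It was 0 for the interaction, 1 with DESeq2, and 0 to 1 without a library. The libraries that decide the call of a member are named beside it above.

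With the replicate block the adjusted p was 0.0676 for Krt18 (TG against WT untreated), 0.0704 for Krt7 (DSS in WT) and 0.0549 for Krt23 (DSS in TG). Same-numbered libraries did not deviate together (r -0.19 to 0.08 over 3 pairs untreated, 0.21 over 2 pairs after DSS, -0.09 to -0.01 in WT and -0.29 to -0.22 in TG), so the numbers were not read as pairs.

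Counts over all genes ranged more widely. They were 520 for TG against WT untreated (166 to 1041 under other settings, 58 to 730 without a library), 26 after DSS (7 to 258, and 4 to 145), 2788 for DSS in WT (1614 to 3471, and 970 to 4112), 771 for DSS in TG (356 to 1244, and 173 to 1677) and 119 for the interaction (41 to 430, and 24 to 424). An interaction in fits of only the groups compared was not run. Krt23, with 62 to 182 counts, and Krt80, with 2 to 11, are the members that depth limits.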
